A study of Mus musculus with 4 samples.

Results

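The 78 mitochondrial ribosomal protein genes of the mouse array are described here. They are the protein-coding genes with a symbol that starts with Mrpl or Mrps and goes on with a number, found by matching each probe's transcript accession to RefSeq. They were reached by 100 probes, out of 21154 named genes and 28026 named probes. All 78 such protein-coding symbols in the RefSeq table had a probe. Of the genes 49 have an Mrpl name and 29 an Mrps name, and the rule used no measured value.

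The samples were Cy3-labelled RNA on 4 one-colour arrays, 1 for each of the groups JQ1 LSK, DMSO LSK, JQ1 MEP and DMSO MEP. LSK cells are the Lineage-negative, Sca-1-positive, c-Kit-positive fraction that holds the stem and multipotent progenitor cells of the bone marrow. MEP cells are progenitors of the megakaryocyte and red cell lineages. JQ1 is an inhibitor of the BET bromodomain proteins, which read acetylated chromatin, and DMSO is its solvent. All 4 groups had the C57BL/6 strain and the JAK2V617F/Ezh2Δ/Δ genotype, so per the labels the controls also carried the activated kinase and the deletion of Ezh2, the methyltransferase of Polycomb repressive complex 2. The deletion was not checked here. Donor marrow with an inducible Cre-ERT2 and floxed Ezh2 alleles had been given to CD45.1+ wild-type recipients after lethal irradiation, and after the deletion JQ1 or DMSO was given for 2 weeks before the sort. Ages, the number of mice behind each array and the promoters that drive JAK2V617F and Cre-ERT2 are not given in the sources used here. Each group is a single array, so no difference below has a test, a p-value or a replicate check.

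Mitochondria keep a ribosome of their own, which makes the few respiratory chain subunits that mitochondrial DNA encodes. Its RNA also comes from mitochondrial DNA, but its proteins are encoded in the nucleus, made in the cytosol and imported. Some of these proteins descend from bacterial ribosomal proteins and others are found only in the mitochondrial ribosome. Developing red cells depend on mitochondria for heme synthesis, whereas blood stem cells are known for a low rate of protein synthesis and for relying little on respiration.

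The values are log2 of the processed signal, relative to the 75th percentile of each array. Each difference between 2 arrays has the difference of the median measured gene taken off, because that gene itself was not at 0. It lay at 0.06 log2 for JQ1 against DMSO in LSK, 0.34 for JQ1 against DMSO in MEP, 0.07 for MEP against LSK under JQ1 and -0.22 for MEP against LSK under DMSO. The error given is the SD of a difference between different probes of the same gene. Over all genes it was 0.26, 0.39, 0.27 and 0.37 log2 in the same order, and these values are used below. Over the members with 2 probes, 22 in the first comparison and 21 in the others, it was smaller, at 0.10, 0.31, 0.17 and 0.21. A value called within the error can therefore lie beyond the members' own SD. It covers neither mice nor sorts. A gene was measured in a comparison where its brightest probe was well above background, with no outlier mark, on both arrays.

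Of the 78 genes, 77 were measured on all 4 arrays. Mrpl21, a large subunit protein with 1 probe, was not well above background on any of them and has no difference below. The probes of the family were bright, since 72 genes lay above the median signal of the 12011 genes measured on all 4 arrays. The differences are therefore also set beside the 6005 genes above that median, a comparison chosen after the data were seen.

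The promoter windows of 6 genes are printed because these genes stand at the ends of the differences below or show the sequence features that the family shares. The windows come from RefSeq on the GRCm38.p6 assembly, run from 250 bases before to 50 bases after the transcript start, and are written 5′ to 3′ on the gene's strand. Mrpl52 (chr14:54426659-54426958, plus strand) was the highest member in MEP relative to LSK under JQ1 and the next after Mrpl41 under DMSO. Mrps10 (chr17:47368947-47369246, plus strand) and Mrpl53 (chr6:83108858-83109157, plus strand) were the highest and the lowest under JQ1 in MEP. Mrpl45 (chr11:97315466-97315765, plus strand), Mrps11 (chr7:78782881-78783180, plus strand) and Mrps12 (chr7:28741772-28742071, minus strand) carry the motifs. Capitals mark matches on either strand to a core of the NRF1 motif (GCGCANGCG), an ETS core (CCGGAAG) and a YY1 core (AAGATGGC).
Mrpl52: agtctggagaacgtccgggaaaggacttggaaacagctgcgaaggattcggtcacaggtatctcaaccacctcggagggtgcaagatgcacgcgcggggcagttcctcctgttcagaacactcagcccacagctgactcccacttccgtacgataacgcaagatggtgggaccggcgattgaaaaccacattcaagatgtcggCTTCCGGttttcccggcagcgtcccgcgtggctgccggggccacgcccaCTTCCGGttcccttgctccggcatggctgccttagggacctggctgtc
Mrps10: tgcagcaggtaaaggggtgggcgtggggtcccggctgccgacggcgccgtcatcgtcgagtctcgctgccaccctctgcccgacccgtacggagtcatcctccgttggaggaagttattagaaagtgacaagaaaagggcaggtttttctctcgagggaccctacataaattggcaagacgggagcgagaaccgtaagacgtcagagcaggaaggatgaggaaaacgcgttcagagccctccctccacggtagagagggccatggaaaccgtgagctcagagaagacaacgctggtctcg
Mrpl53: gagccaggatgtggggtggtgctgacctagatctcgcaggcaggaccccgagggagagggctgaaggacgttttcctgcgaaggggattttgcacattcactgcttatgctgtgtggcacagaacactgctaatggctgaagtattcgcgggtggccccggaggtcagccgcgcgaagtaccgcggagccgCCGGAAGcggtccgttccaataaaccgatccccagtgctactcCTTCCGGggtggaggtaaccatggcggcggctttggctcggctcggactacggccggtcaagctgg
Mrpl45: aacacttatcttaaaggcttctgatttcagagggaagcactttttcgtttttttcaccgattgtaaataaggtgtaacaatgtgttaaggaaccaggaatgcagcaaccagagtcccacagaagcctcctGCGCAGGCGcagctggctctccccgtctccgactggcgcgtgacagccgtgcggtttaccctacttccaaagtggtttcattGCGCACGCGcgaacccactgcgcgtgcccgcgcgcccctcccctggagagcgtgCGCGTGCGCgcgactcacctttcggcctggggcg
Mrps11: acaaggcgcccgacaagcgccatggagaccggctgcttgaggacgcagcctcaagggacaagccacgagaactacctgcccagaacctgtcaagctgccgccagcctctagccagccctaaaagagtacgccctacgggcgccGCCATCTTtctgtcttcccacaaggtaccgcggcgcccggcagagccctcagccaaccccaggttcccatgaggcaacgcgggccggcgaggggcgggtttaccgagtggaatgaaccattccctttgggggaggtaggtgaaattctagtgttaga
Mrps12: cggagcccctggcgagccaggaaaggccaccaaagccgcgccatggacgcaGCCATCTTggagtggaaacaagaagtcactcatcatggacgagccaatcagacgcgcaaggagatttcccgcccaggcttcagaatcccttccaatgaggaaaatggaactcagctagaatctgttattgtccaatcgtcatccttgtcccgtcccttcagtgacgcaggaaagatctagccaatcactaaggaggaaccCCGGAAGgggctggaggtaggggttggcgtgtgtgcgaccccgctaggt

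The table held windows for 69 of the 78 genes, 75 windows in all. The NRF1 core, named for a factor known to act on nuclear genes of mitochondrial proteins, was found in 21.3% of the members' windows. It was found in 15.2% of windows of protein-coding genes above the median signal and in 6.25% of all 32851 windows in the table. The ETS core, the kind bound by GABP, was in 34.7% of the members' windows, against 20.9% and 8.86%. The YY1 core was in 16%, against 5.28% and 2.75%. The median match began 17 bases before the transcript start for the ETS core (offset -17), 49 before for NRF1 (-49) and 15 after for YY1.

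Of the 69 genes, 44 had at least 1 of these cores, 10 had 2 of them, 0 had all 3 and 25 had none. Mrpl45 held 3 NRF1 cores, Mrpl52 and Mrpl53 held 2 ETS cores each, Mrps12 held an ETS and a YY1 core, and Mrps10 held none of the 3. The E-box CACGTG was in 9.33% of the members' windows, against 11.3% for bright protein-coding genes and 7.15% for all windows. The CCAAT box (CCAAT) was in 40.0%, against 37.9% and 37.4%, the GC box (GGGCGG) in 52.0%, against 63.8% and 35.7%, and the TATA box (TATAAA) in 6.67%, against 6.92% and 13.6%. Matches to different cores may share bases, as the last letters of the ETS core are the first of the YY1 core. These are matches of letters in a window and say nothing about binding.

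The medians of members with and without a core were compared as a description, with no test. In MEP against LSK under JQ1 genes with an NRF1 core had a median of 0.26 log2 and those without 0.17, with an ETS core 0.22 and without 0.16, and with a YY1 core 0.20 and without 0.17. Under DMSO the medians with and without were 0.10 and 0.06 for NRF1, 0.05 and 0.06 for ETS, and 0.09 and 0.06 for YY1. For JQ1 against DMSO in MEP the 16 measured genes with an NRF1 core had a median difference of 0.12 log2 and the 52 without it 0.11. The 25 genes with an ETS core had a median of 0.12 and the 43 without 0.11. The 12 genes with a YY1 core had 0.10 and the 56 without 0.11. For JQ1 against DMSO in LSK the medians with and without were -0.03 and -0.03 for NRF1, -0.06 and -0.02 for ETS, and -0.05 and -0.03 for YY1.

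The labels were checked on marker genes. All 10 MEP markers, among them the red cell factors Gata1 and Klf1, were higher in MEP than in LSK by at least 2-fold, with medians of 2.66 log2 under JQ1 and 2.18 under DMSO, where 3.92% and 5.68% of all genes were 2-fold higher. Ly6a, the gene of Sca-1, was lower in MEP by -4.13 under JQ1 and -4.58 under DMSO, while Kit was at -0.65 and -0.67. Of the LSK markers, 8 of 9 measured were below the median gene in MEP under JQ1 and 8 of 10 under DMSO. Slamf1 went the other way (1.18 under JQ1 and 2.35 under DMSO), as did Mecom under DMSO (0.87). Of 10 markers of mature lineages, 9 were on the array and 6 were well above background on all 4 arrays. In LSK the B-cell gene Ms4a1 (-2.33) and the NK gene Klrb1c (-1.57) were lower by 2-fold under JQ1, as were 3.22% of all genes, while Cd3e, Cd4, Fcgr3 and Itgam lay between -0.48 and 0.00. A list of 12 immediate early genes and nuclear RNAs stood high on the DMSO MEP array. Such genes can respond to handling of cells and to RNA quality. Here these cannot be told apart from the treatment, since each group is 1 array. All 12 were lower by at least 2-fold on JQ1 MEP than on DMSO MEP, with a median of -2.24 log2, as were 5.77% of all genes, and 11 were higher by 2-fold on DMSO MEP than on DMSO LSK. The DMSO MEP array also had 53.2% of its probes above background, against 45.2% to 47.3% on the other arrays. The part of any of these in the results below was not tested. In sorted cells that are measured in bulk, fewer cells of a type and less RNA per cell cannot be told apart.

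LSK cells of JQ1-treated mice were set against LSK cells of DMSO-treated mice. The mitochondrial ribosomal protein genes stood close to the median gene, with 33 of 77 above it, where the share over all genes is 50%. The median difference was -0.03 log2 (SD of 0.12 across the 77 genes), but 0.12 with no background filter, where 65 of 78 lay above. With the arrays scaled to the spike-ins without centring it was 0.52, where the median of all genes was 0.54. Genes above the median signal had a median of 0.03, with 55.2% above the median gene. None of the 77 differed by 1.5-fold, where 2.34% of all 12326 measured genes were higher and 7.54% lower by that much, and 0.966% and 2.41% of the genes above the median signal. The lowest was at -0.28 and the highest at 0.29, and 3 genes lay beyond the error of 0.26 log2, 1 higher (1.30%) and 2 lower (2.60%), against 10.4% and 9.41% of the genes above the median signal. Of the 77 genes, 70 (90.9%) lay within 0.2 log2 of the median gene, against 69.5% of the genes above the median signal, a width chosen after the data were seen.

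Mrpl38, a protein of the mitochondria-specific part of the large subunit, read 1.99 log2 on JQ1 LSK and 1.64 on DMSO LSK, and 2.17 on JQ1 MEP and 1.54 on DMSO MEP. It was higher under JQ1 in both cell types, by 0.29 log2 in LSK and 0.29 in MEP, and was the highest member in LSK. Mrps9, a small subunit protein of bacterial descent, read 3.48 on JQ1 LSK and 3.20 on DMSO LSK, a difference of 0.21. Mrpl45, which sits at the exit of the peptide tunnel and holds the ribosome at the inner membrane, read 4.31 on JQ1 LSK and 4.06 on DMSO LSK, a difference of 0.19. Mrps6 (0.16) and Mrpl9 (0.15), both with bacterial counterparts, followed. Mrpl38 lay beyond the error and the other 4 within it.

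At the low end was Mrps36, which carries the name of the family but is now known, from human and yeast work, as a component of the 2-oxoglutarate dehydrogenase complex. It read 4.35 log2 on JQ1 LSK and 4.56 on DMSO LSK, against 4.93 on JQ1 MEP and 4.47 on DMSO MEP. The JQ1 LSK array was thus the lowest of the 4 and JQ1 MEP the highest, with differences of -0.28 in LSK and 0.13 in MEP. Its second probe gave -0.13 and 0.29. Mrps16, a small subunit protein whose loss causes respiratory chain disease in humans, read 5.98 on JQ1 LSK and 6.18 on DMSO LSK, a difference of -0.26. Mrpl33, a small protein of bacterial descent, read 7.68 on JQ1 LSK and 7.86 on DMSO LSK, a difference of -0.25. Mrps14 (-0.22), Mrps18c (-0.20) and Mrpl14 (-0.20), the last a subunit-interface protein, were next. Mrps36 and Mrps16 lay beyond the error and the other 4 within it.

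MEP cells were compared in the same way. Here 61 of 77 genes lay above the median gene, where the share over all genes is 50%. The median difference was 0.12 log2 (SD of 0.21 across genes), but -0.08 after quantile normalization. With spike-in scaling and no centring it was -0.45, where the median of all genes was -0.57. The members above the median gene were 79.2%, against 63% of the genes above the median signal, whose median was 0.10 log2. That gap was not tested. The list of immediate early genes and nuclear RNAs, described above, separates the same 2 arrays by a median of -2.24. Its part here was not tested. None of the 77 differed by 1.5-fold, where 4.09% of all 12540 measured genes were higher and 13.7% lower, and 3.06% and 5.61% of those above the median signal. Beyond the error of 0.39 log2, 4 were higher (5.19%) and 3 lower (3.90%), against 14.6% and 10.4% of the genes above the median signal. Within 0.2 log2 of the median gene lay 47 of the 77, against 43.0% of the genes above the median signal.

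Mrps10, a protein of the head of the small subunit, was the highest. It read 4.87 log2 on JQ1 MEP and 3.95 on DMSO MEP, against 4.70 on JQ1 LSK and 4.66 on DMSO LSK. The DMSO MEP array was the low one and the other 3 lay close together, so the difference was 0.58 in MEP and -0.03 in LSK. Mrpl2, which lies near the peptidyl transferase centre, read 6.27 on JQ1 MEP and 5.42 on DMSO MEP, against 6.03 on JQ1 LSK and 5.96 on DMSO LSK. Again DMSO MEP was the low array, with differences of 0.51 in MEP and 0.00 in LSK. Mrpl35, of bacterial descent, read 0.39 on JQ1 MEP and -0.42 on DMSO MEP, against -0.03 on JQ1 LSK and 0.00 on DMSO LSK, with a difference of 0.47 in MEP. DMSO MEP was the low array for this gene too. Mrpl9 (0.39) and Mrpl45 (0.39) followed and lay just within the error.

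Mrps25, found only in mitochondrial ribosomes, read 5.65 on JQ1 MEP and 4.83 on DMSO MEP by its brighter probe, a difference of 0.48. Its second probe, matched to the same transcript, was much dimmer, at -0.64 on JQ1 MEP and -0.12 on DMSO MEP, and gave -0.85. The direction for Mrps25 in MEP is therefore not settled. In LSK its probes gave 0.05 and 0.16.

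At the low end in MEP was Mrpl53, found only in mitochondrial ribosomes. It read 4.18 log2 on JQ1 MEP and 4.29 on DMSO MEP, against 3.89 on JQ1 LSK and 3.98 on DMSO LSK, with differences of -0.45 in MEP and -0.15 in LSK. Mrpl33 was also low in both cell types, at 7.66 on JQ1 MEP and 7.74 on DMSO MEP, a difference of -0.41. Mrpl41, again specific to mitochondria, read 5.70 on JQ1 MEP and 5.78 on DMSO MEP, against 5.24 on JQ1 LSK and 5.22 on DMSO LSK. Its difference was -0.41 in MEP by the brighter probe and -1.57 by the other, and -0.04 and -0.12 in LSK. The other probe was much dimmer, at -2.40 on JQ1 MEP and -1.17 on DMSO MEP. Mrps17 (-0.31), Mrpl50 (-0.25) and Mrpl14 (-0.25) came next and lay within the error.

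**Figure D1:**
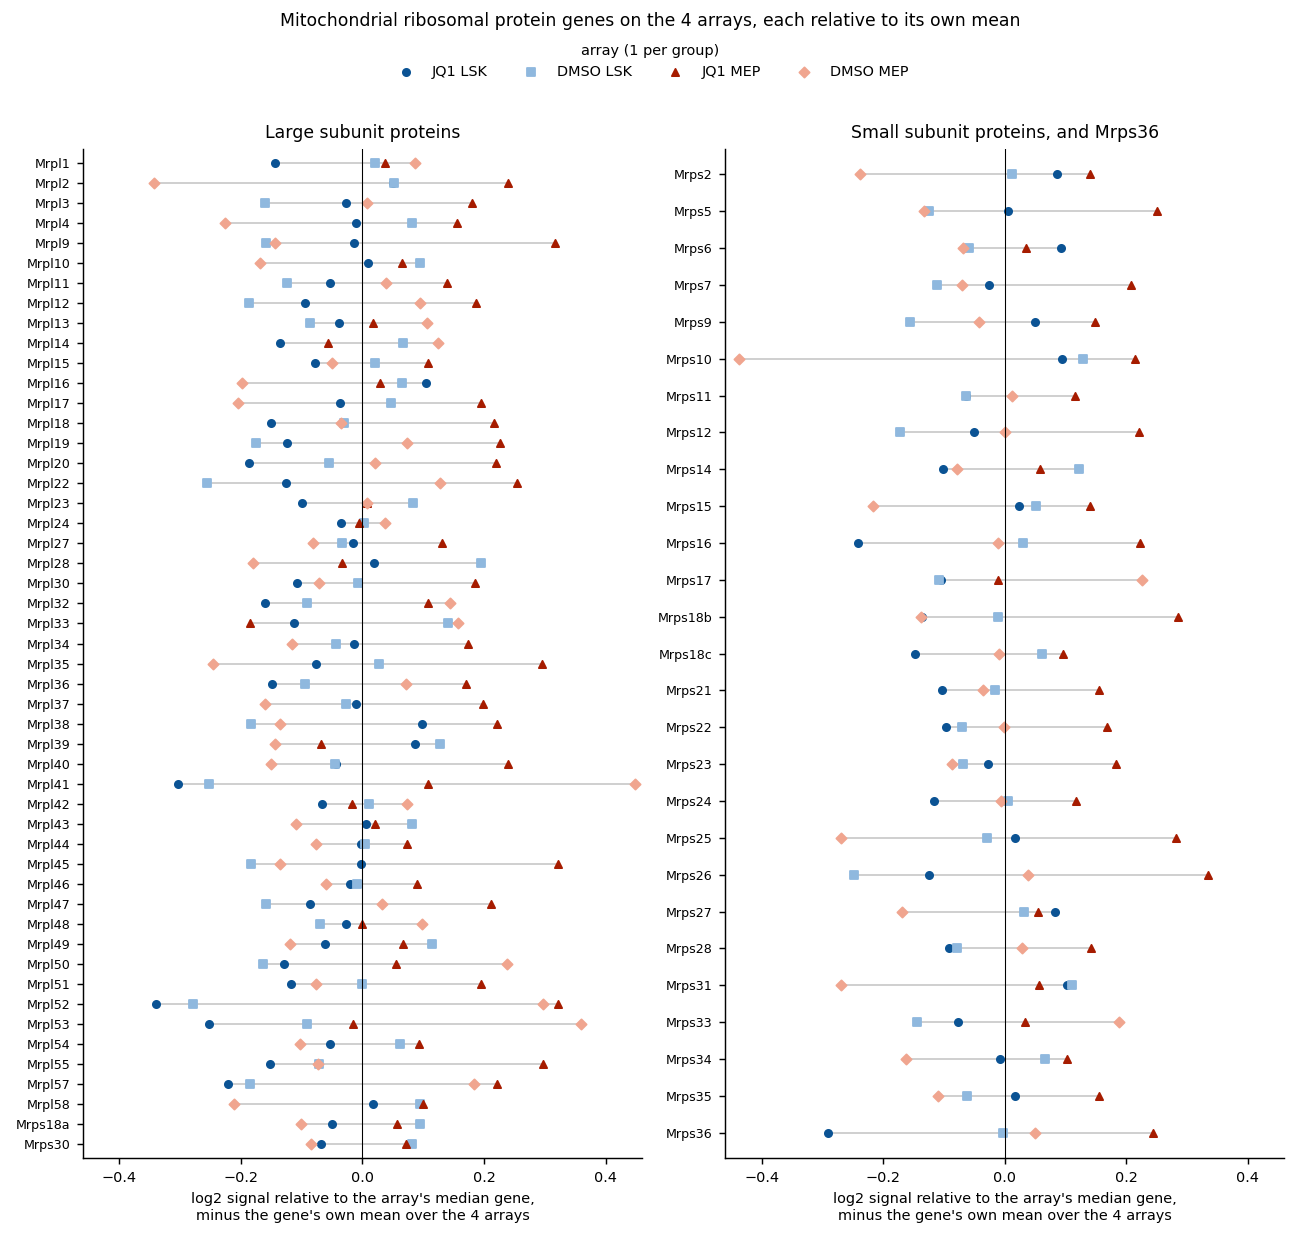
Each of the 77 measured genes is a row, and each symbol is 1 array: the horizontal axis is the log2 signal relative to the array's median gene, minus the gene's own mean over the 4 arrays. The JQ1 MEP symbol is the rightmost one for 51 of the 77 genes and the leftmost for 1. This order was not computed under the other processing settings.

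Relative to the median of all genes on each array, 51 of the 77 genes (66.2%) were highest on JQ1 MEP. The same held for 30.5% of all genes and 40.5% of the genes above the median signal. Of the 77, 1 (1.30%) was lowest on JQ1 MEP, against 23.6% of all genes and 15.5% of the genes above the median signal. The lowest array was DMSO MEP for 32 genes (41.6%, against 46.6% of genes above the median signal), JQ1 LSK for 25 (32.5%, against 15.2%) and DMSO LSK for 19 (24.7%, against 22.7%). JQ1 LSK was the highest array for 3 genes (3.90%, against 19.3% of all genes), DMSO LSK for 10 (13%, against 25.9%) and DMSO MEP for 13 (16.9%, against 24.3%). Among the genes above the median signal these shares were 19.1%, 22.7% and 17.7%, the last close to that of the members. The array order was not computed under the other processing settings. For JQ1 in MEP 61 of 77 members lay above the median gene, but 23 after quantile normalization. With no background filter 45 of 78 did, so the order may differ under those settings.

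The JQ1 differences in LSK and MEP share no array. Subtracting the LSK value from the MEP value gave a median of 0.12 log2 over the 77 genes. This was -0.01 after quantile normalization, -0.11 with no background filter and -0.996 with spike-in scaling and no centring. Of the 77, 58 lay above 0, against 50.8% of all genes and 59.2% of the genes above the median signal, whose median was 0.09. Mrps10 alone was past 1.5-fold, where 9.39% of all genes were higher by that much and 13.5% lower, and 6.49% and 6.64% of those above the median signal. It was largest for Mrps10 (0.61), Mrpl35 (0.57), Mrpl2 (0.51), Mrps18b (0.47) and Mrps25 (0.43), and lowest for Mrpl41 (-0.37), Mrps17 (-0.32), Mrps33 (-0.30), Mrpl50 (-0.29) and Mrpl53 (-0.29). Of the 77 genes, 28 were above the median gene in both cell types, 11 below it in both, 33 below in LSK and above in MEP, and 5 the reverse. Of the 12011 genes measured on all arrays, the same 4 counts were 3305, 3216, 2721 and 2769. Of the 6005 genes above the median signal they were 2208, 1117, 1573 and 1107. Between the cell types, Pearson's r across the 77 genes was 0.24, with a Spearman's rho of 0.19, against 0.157 and 0.105 for the 12011 genes measured on all arrays, as a description of genes that share their arrays.

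**Figure D2:**
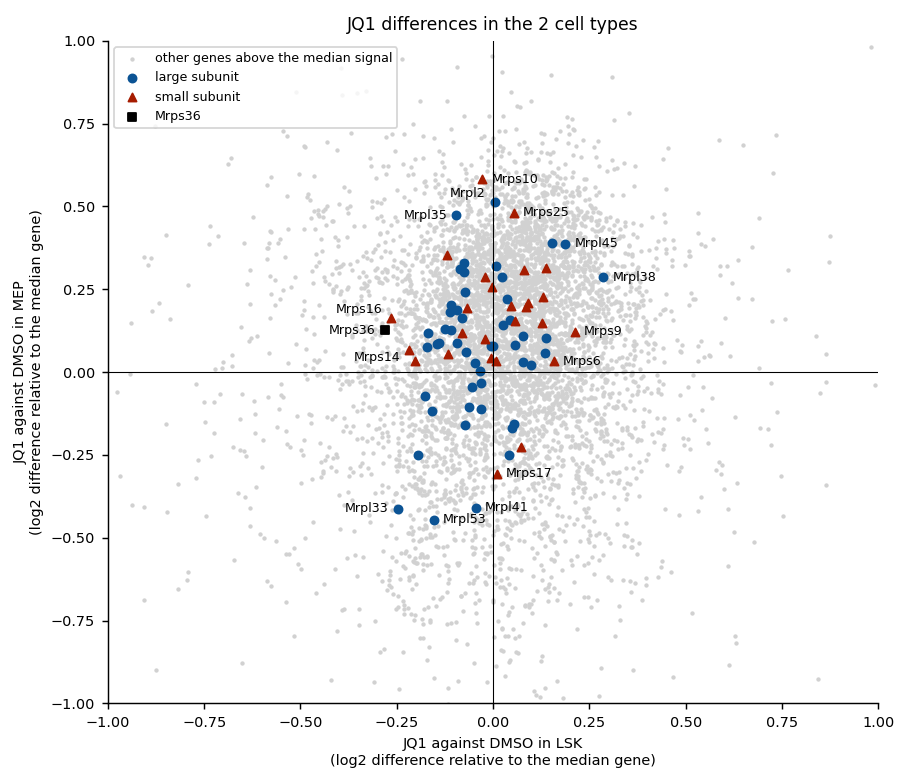
The log2 difference of JQ1 against DMSO, relative to the median gene, is shown in LSK on the horizontal axis and in MEP on the vertical axis. Large subunit genes are circles, small subunit genes triangles and Mrps36 a square, over the other genes above the median signal in grey. The members spread from -0.28 to 0.29 in LSK and from -0.45 to 0.58 in MEP.

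The members were then divided by place in the ribosome, following human structures. The large subunit has 51 of the genes, counting Mrps18a and Mrps30, which were named as small subunit proteins and sit in the large one, and the small subunit has 26. For JQ1 in LSK the median was -0.05 log2 in the large subunit, where 19 of 50 genes lay above the median gene, and 0.01 in the small subunit, where 14 of 26 did. For JQ1 in MEP it was 0.09 in the large subunit, with 36 of 50 genes above, and 0.16 in the small subunit, with 24 of 26. Genes of bacterial descent and mitochondria-specific genes were close, at 0.11 (43 genes) and 0.12 (31 genes) in MEP and -0.03 and -0.02 in LSK. All of these gaps are smaller than the spread across members.

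Members with a known single role read as follows. Mrpl11, at the site where translation factors bind, differed under JQ1 by 0.08 log2 in LSK and 0.03 in MEP. Mrpl10, which anchors the stalk, gave -0.08 and 0.16, and Mrpl12, the stalk protein, which in human cells was also reported to bind the mitochondrial RNA polymerase, gave 0.10 and 0.02. Mrpl3 gave 0.14 in LSK and 0.10 in MEP. Mrpl44, related to ribonuclease III and a cardiomyopathy gene in humans, gave 0.00 and 0.08. Mrpl58, a peptidyl-tRNA hydrolase that frees stalled ribosomes, gave -0.07 and 0.24. Mrps12, at the decoding centre, gave 0.13 and 0.15, and Mrps22, a disease gene in humans, -0.02 and 0.10.

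The mammalian ribosome has 3 relatives of bacterial S18. Mrps18b gave -0.12 in LSK and 0.35 in MEP, Mrps18c -0.20 and 0.03, and Mrps18a -0.14 and 0.09. Mrps30 gave -0.14 in LSK and 0.09 in MEP. Each of these values lay within the error of its comparison.

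MEP and LSK cells were compared within each treatment, and these comparisons use the same 4 arrays as those above. Under JQ1, 69 of 77 genes lay above the median gene in MEP, where the share over all genes is 50%. The median difference was 0.17 log2 (SD of 0.15 across genes). With spike-in scaling and no centring it was -0.03, where the median of all genes was -0.20. Of the genes above the median signal, 56.1% were above the median gene, with a median of 0.04. Only Mrpl52 was 1.5-fold higher and none was lower by that much, where 8.53% of all 12257 measured genes were higher and 10.8% lower, and 5.51% and 6.11% of those above the median signal. Beyond the error of 0.27 log2, 19 genes (24.7%) were higher and 0 lower, against 19.5% and 15.7% of the genes above the median signal.

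Under DMSO the values were more spread. Of 77 genes 48 lay above the median gene, with a median of 0.06 log2 (SD of 0.23 across genes) against 46.7% and a median of -0.03 for genes above the median signal. The members' median was 0.20 with no background filter. Without centring it was -0.16, where the median of all genes was -0.22. With spike-in scaling and no centring it was 0.96, where the median of all genes was 0.90. Mrpl41 and Mrpl52 were 1.5-fold higher and none was lower, where 14% of all 12403 measured genes were higher and 11.9% lower, and 8.81% and 8.03% of those above the median signal. This comparison includes the DMSO MEP array, on which the list of immediate early genes and nuclear RNAs stood high.

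Mrpl52, specific to the mitochondrial large subunit, read 7.08 log2 on JQ1 MEP and 6.36 on JQ1 LSK, and 6.78 on DMSO MEP and 6.35 on DMSO LSK. Both MEP arrays were above both LSK arrays, by 0.65 under JQ1 and 0.65 under DMSO. Mrpl41 was also higher on both MEP arrays, with differences of 0.39 under JQ1 and 0.77 under DMSO by the brighter probe. Its second probe gave -0.34 under JQ1 and 1.12 under DMSO. Mrpl57, another mitochondria-specific protein, read 6.99 on JQ1 MEP and 6.49 on JQ1 LSK, and 6.68 on DMSO MEP and 6.46 on DMSO LSK. It was higher in MEP by 0.43 under JQ1 and 0.44 under DMSO.

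Mrps26, a mitochondria-specific small subunit protein, was higher in MEP by 0.44 under JQ1 and 0.36 under DMSO, and its second probe gave 0.35 and 0.19. Some genes stood further from LSK under JQ1 than under DMSO, such as Mrps36 (0.52 under JQ1, 0.12 under DMSO), Mrps16 (0.45 and 0.03) and Mrpl55 (0.43 and 0.07). Mrpl53 (0.22 under JQ1, 0.52 under DMSO) and Mrpl50 (0.17 and 0.47) were higher under DMSO than under JQ1, and Mrpl22, of bacterial descent, was high in both (0.36 and 0.46). Whether these genes differ between treatments was not tested, since each group is 1 array.

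The lowest genes in MEP under JQ1 were Mrpl39 (-0.17 under JQ1, -0.20 under DMSO), Mrpl16 (-0.09 and -0.19), Mrpl33 (-0.09 and 0.09), Mrps6 (-0.08 and 0.06) and Mrpl28 (-0.07 and -0.30). Under DMSO the lowest were Mrps10 (0.10 under JQ1, -0.49 under DMSO), Mrpl2 (0.17 and -0.32), Mrps31 (-0.06 and -0.31), Mrpl28 and Mrpl4 (0.15 and -0.24). Mrps10 and Mrpl2 are the genes that stood low on the DMSO MEP array and were highest under JQ1 in MEP. That array enters both comparisons.

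Across treatments, which share no array, 46 of the 77 genes (59.7%) were above the median gene in MEP both under JQ1 and under DMSO, against 31.7% of all genes and 33.3% of those above the median signal. There were 6 genes (7.79%) below it in both, 23 above under JQ1 and below under DMSO, and 2 the reverse. Of all 12011 genes, 31.4% were below in both, 2172 were above under JQ1 and below under DMSO, and 2251 were the reverse. Of the 6005 genes above the median signal, 30.5% were below in both, and the other counts were 1367 and 800. Pearson's r between the treatments was 0.47 and Spearman's rho 0.41 across the 77 genes, against 0.65 and 0.46 for the genes above the median signal.

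**Figure D3:**
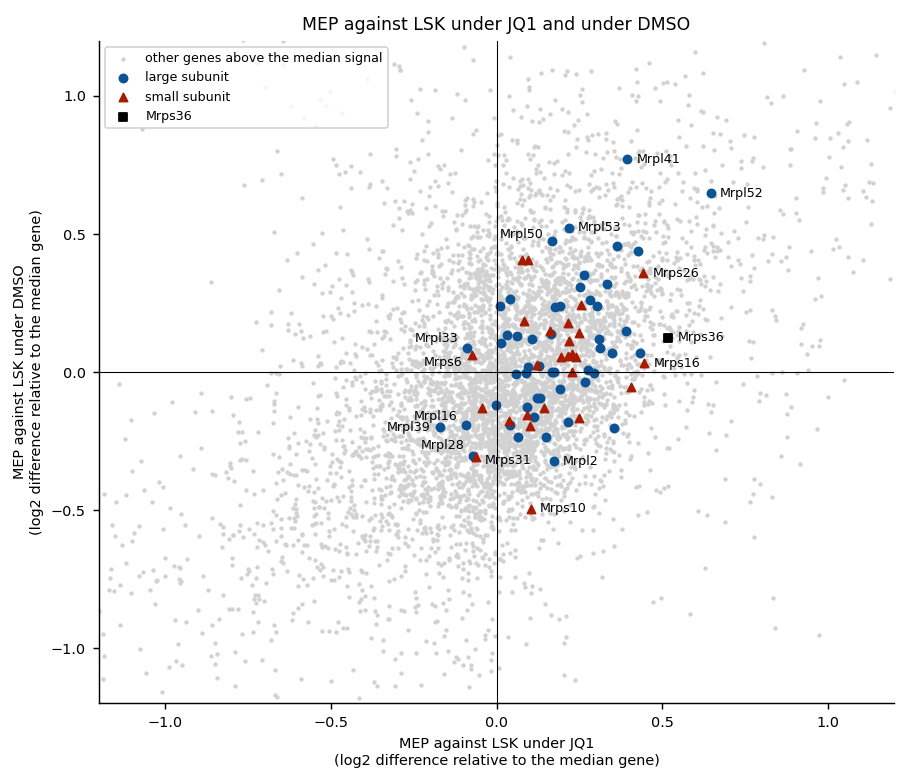
The log2 difference of MEP against LSK, relative to the median gene, is shown under JQ1 on the horizontal axis and under DMSO on the vertical axis, with symbols as for the JQ1 differences. Of the 77 members 69 lie right of 0, and Mrpl52 (0.65 and 0.65) and Mrpl41 (0.39 and 0.77) lie furthest up. With spike-in scaling and no centring 33 were above 0, where the median of all genes was itself at -0.20.

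**Figure D4:**
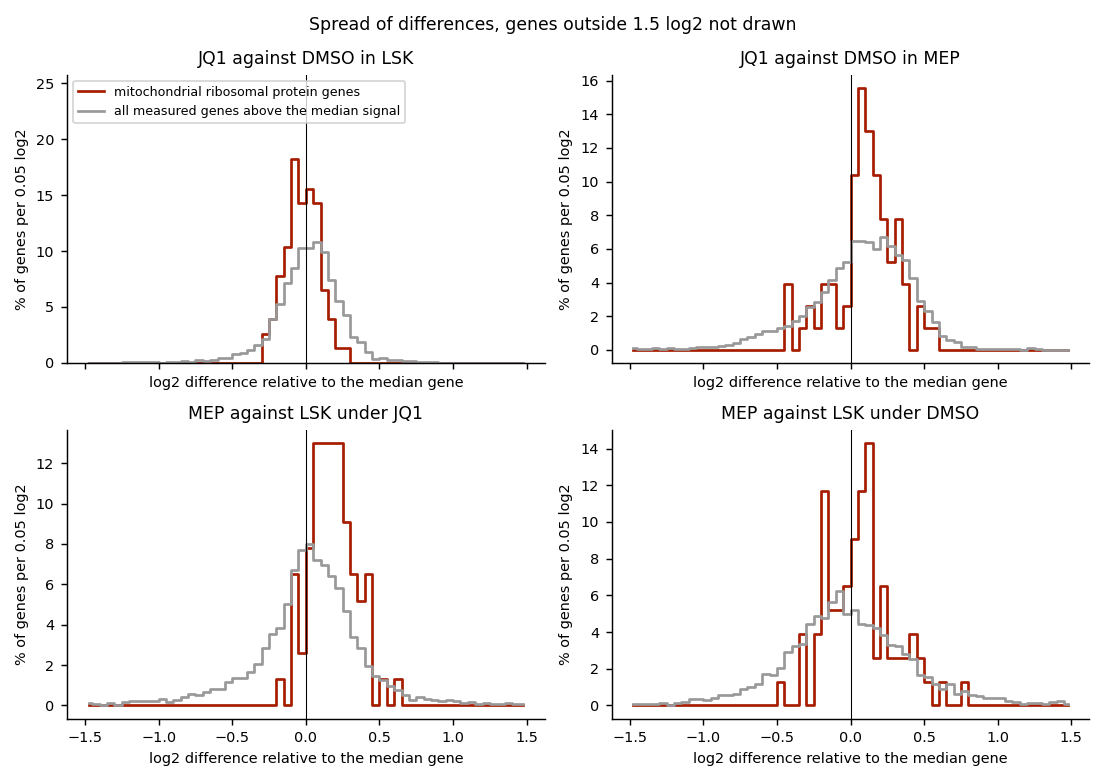
Histograms of the log2 differences in the 4 comparisons are drawn in bins of 0.05 log2, as a percent of genes, for the 77 members and for the genes above the median signal. The members form the narrower curve in each panel, with 90.9% of them within 0.2 log2 of the median gene for JQ1 in LSK.

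Members with 2 probes show how far a single value can be trusted. Of 22 such genes, 21 had both probes above background on all arrays, and in 20 of these both probes matched the same transcript. The pair fell on the same side of the median gene in 16 of 21 for JQ1 in LSK, 17 for JQ1 in MEP, 16 for MEP against LSK under JQ1 and 15 under DMSO. The median gap within a pair was 0.10, 0.12, 0.09 and 0.17 log2 in the same order.

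The pairs that disagreed most were those of Mrps25 and Mrpl41, given above, and of Mrps2, Mrps14 and Mrpl49. Mrps2 gave 0.31 and -0.22 for JQ1 in MEP, Mrps14 gave 0.14 and 0.61 for MEP against LSK under JQ1, and Mrpl49 gave -0.17 and 0.23 for JQ1 in LSK. Mrpl43, whose probes gave -0.07 and -0.07 for JQ1 in LSK and 0.06 and 0.07 in MEP, was the closest pair.

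The other genes of mitochondrial translation were taken from lists. Ribosomal proteins with other symbols, 5 in the list, had median JQ1 differences of -0.08 log2 in LSK and 0.19 in MEP. Dap3, a GTP-binding protein of the small subunit, differed by 0.13 in LSK and 0.28 in MEP, Aurkaip1 by -0.09 and 0.19, and Gadd45gip1 by -0.08 and 0.24. Chchd1 was at -0.13 in LSK and -0.45 in MEP, and Ptcd3 at 0.10 and 0.04.

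Of 14 translation factors 13 were on the array and measured, with a median JQ1 difference of 0.11 log2 in LSK and 0.25 in MEP. In LSK 9 of 13 lay above the median gene and none was past 1.5-fold, with Gfm1 (0.31), Mtif3 (0.30) and Mtfmt (0.23) highest and Mrrf (-0.20), Mtrf1 (-0.08) and Mtif2 (-0.06) lowest. In MEP 7 of 13 lay above it. The highest in MEP were the elongation factors Tufm (0.69) and Gfm1 (0.54) and Gfm2 (0.44), which acts in ribosome recycling, and the lowest were the initiation factor Mtif2 (-1.45), Guf1 (-0.58) and Mtfmt (-0.38), which formylates the initiator tRNA. Mtif2 read 6.31 on JQ1 MEP and 7.42 on DMSO MEP, against 6.70 on JQ1 LSK and 6.70 on DMSO LSK, so DMSO MEP was the high array.

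The list of ribosome assembly and rRNA modification held 27 symbols, of which 26 were on the array. Its medians were 0.12 in LSK (18 of 25 above the median gene) and 0.13 in MEP (16 of 26). In MEP the highest were Fastkd2 (0.78), which was above background on 2 arrays only, the GTPase Noa1 (0.55) and the rRNA chaperone Eral1 (0.51), and the lowest Trub2 (-0.22), Malsu1 (-0.19) and Mterf3 (-0.15). In LSK the ends were the rRNA methyltransferase Nsun4 (0.34), Trub2 (0.23) and Rpusd4 (0.22), and Mterf3 (-0.16), Mpv17l2 (-0.13) and Ddx28 (-0.09). The mitochondrial aminoacyl-tRNA synthetases had medians of 0.10 in LSK (16 of 19 above) and 0.13 in MEP (13 of 19), with Iars2 (0.33) and Lars2 (0.30) among the highest and Wars2 (-0.94), Qrsl1 (-0.54) and Mars2 (-0.33) lowest in MEP. In LSK Mars2 (-0.39), Qrsl1 (-0.16) and Gatc (-0.12) were the ones below the median gene.

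Genes of mitochondrial DNA transcription and RNA handling had medians of 0.06 in LSK (9 of 16 above) and -0.03 in MEP (5 of 16). The lowest in MEP were Fastkd1 (-1.06), Tefm (-0.59) and Tbrg4 (-0.48), and the highest Fastkd5 (0.58), Lrpprc (0.51) and Tfb2m (0.33). In LSK the helicase Twnk (0.40), Pnpt1 (0.29) and Polrmt (0.27) were highest and Slirp (-0.19), Ssbp1 (-0.14) and Fastkd1 (-0.11) lowest. Import and chaperone genes had medians of 0.02 in LSK (8 of 15 above) and 0.21 in MEP (13 of 15). The chaperone Hspd1 (0.68), the import pore Tomm40 (0.60) and the chaperone Hspa9 (0.59) were 1.5-fold higher in MEP, and Tomm20 (-0.19) and Hspe1 (-0.12) lay below the median gene. In LSK the list ran from Timm23 (-0.15) to Hspd1 (0.26). Background shares are those given above for JQ1 in MEP.

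Of 10 regulators of mitochondrial gene expression 9 were measured, with medians of 0.12 in LSK and 0.14 in MEP. Nrf1 gave -0.07 in LSK and 0.26 in MEP, Gabpa 0.20 and 0.31, Yy1 0.11 and 0.27, and Myc 0.12 and 0.14. The coactivator Ppargc1b gave 0.89 in LSK and -0.64 in MEP, and Ppargc1a was above background on 0 arrays. Tfe3 (-0.09 and 0.37), Esrra (0.29 and -0.17), Gabpb1 (0.15 and 0.03) and Pprc1 (-0.16 and 0.04) complete the list.

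Of 2 related families, the cytosolic ribosomal proteins, taken by symbol, had a median of -0.15 log2 in LSK with 4 of 80 above the median gene, and 0.04 in MEP with 48 of 80. The symbols also take in some genes that are not such proteins, among them Rps19bp1 (0.13 in LSK) and Rps23rg1 (-1.14 in MEP). Respiratory chain subunits had medians of -0.08 in LSK (16 of 80 above) and 0.05 in MEP (50 of 80). In MEP against LSK their medians were 0.02 and 0.10 under JQ1 and -0.11 and -0.07 under DMSO, each below that of the mitochondrial ribosomal proteins, at 0.17 and 0.06. Ribosomal proteins with other symbols were higher, at 0.25 under JQ1 and 0.32 under DMSO, as were import and chaperone genes (0.23 and 0.07). Mitochondrial DNA transcription genes stood at 0.19 and 0.20, translation factors at 0.08 and 0.17, and synthetases at 0.09 and 0.16. Ribosome assembly genes stood at 0.06 and 0.08, and regulators at 0.11 and -0.03. These gaps were not tested.

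**Figure D5:**
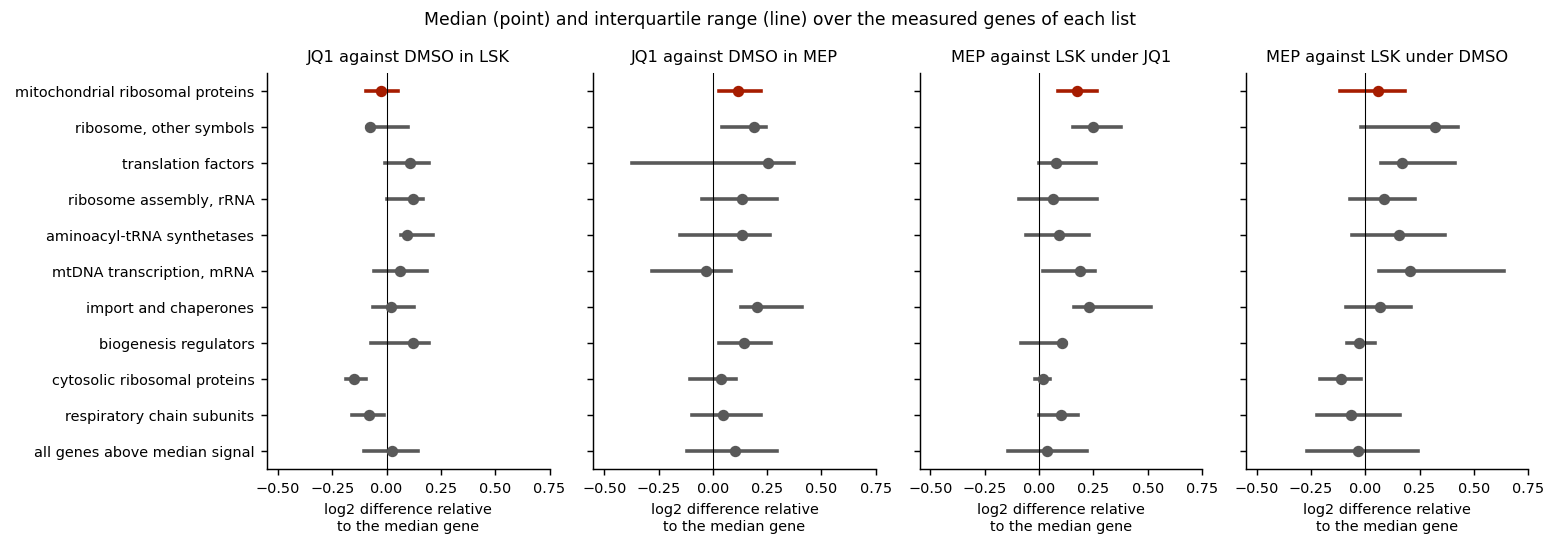
For each list, the point is the median and the line the interquartile range of the log2 difference relative to the median gene, over its measured genes, in the 4 comparisons. The mitochondrial ribosomal proteins, in red, sit at -0.03, 0.12, 0.17 and 0.06 from left to right. With centring kept, the sign changed for JQ1 in MEP after quantile normalization (-0.08) and for JQ1 in LSK with no background filter (0.12). For MEP against LSK, under JQ1 and under DMSO, it changed only in settings without centring, where the median of all genes moved as well.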

How the data were processed

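RNA of 4 sorted samples, 1 array per group, was hybridised in 1 colour to Agilent arrays of design 028005. The deposited intensity values are processed signals from Feature Extraction 10.7.1.1 with protocol GE1_107_Sep09, per the file headers, which place probes on mm9. The deposited series table holds a linear ratio per probe, which matched the processed signal over a constant within 1% for 100% of the probes compared, and served as an alternative.

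From these, log2 of the processed signal was averaged over the unmarked spots of a probe and set relative to the array's 75th percentile. Of 55681 probes that were not controls, 28026 (50.3%) matched a RefSeq gene by transcript accession, and the brightest probe stood for its gene. Differences were centred on the median measured gene. No saturated spot was found. The number of arrays limits the precision, and no p-value was computed. The labels give no separate mice, so probe error is all that is shown.

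The text names, for each comparison, the 5 highest and 5 lowest members, members past 2-fold, members with a known single role, members not above background, the 5 with the most discordant probes, and the 3 highest and lowest genes of a pathway list. Some genes of the marker and pathway lists are not reported here by name. The members and lists were chosen with earlier results of these data known. The widths, brightness comparison, array order, counts beyond the probe error, gene lengths and neighbouring genes were chosen after the data were seen. Scaling, quantile normalization, normexp (limma 3.58.1, R 4.3.3, offset 50, on the median spot signal), probe choice and filters were the 10 alternatives. Other steps used Python 3.11.15, numpy 2.4.6, pandas 2.3.3 and scipy 1.17.1, and were tested on simulated data.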

Additional observations from a re-analysis of the deposited data

How the results depend on the processing

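Scaling to the 10 spike-in probes without centring moved the values most. The median of the members was then 0.52 for JQ1 in LSK, -0.45 for JQ1 in MEP, -0.029 for MEP against LSK under JQ1, 0.96 under DMSO and -0.996 for the JQ1 difference in MEP minus LSK. The counts above 0 were 77, 1, 33, 77 and 0, and the counts past 1.5-fold in the first 4 were 25, 16, 0 and 75. The median of all genes also moved, to 0.54, -0.57, -0.20 and 0.90 in the first 4. Without centring on the median gene, the medians were 0.45 for JQ1 in MEP (17 past 1.5-fold), -0.16 for MEP against LSK under DMSO (19 above 0, 1 past 1.5-fold) and 0.39 for MEP minus LSK, and 2 genes were past 1.5-fold in MEP against LSK under JQ1. Median scaling left 1 gene past 1.5-fold for JQ1 in MEP and 1 for MEP against LSK under DMSO. Quantile normalization gave a median of -0.083 with 23 above and 4 past 1.5-fold for JQ1 in MEP, 4 past 1.5-fold for MEP against LSK under DMSO, and -0.0147 with 36 above for MEP minus LSK. With no background filter the medians were 0.12 (65 of 78 above) for JQ1 in LSK, 0.20 (61 above, 6 past 1.5-fold) for MEP against LSK under DMSO and -0.11 (28 above) for MEP minus LSK. Under that setting 45 were above for JQ1 in MEP, and 0 were past 1.5-fold in MEP against LSK under JQ1. Centred on the genes above the median signal, the 72 members there had a median of 0.0060 for JQ1 in MEP, with 37 above. Averaging probes put 2 genes past 1.5-fold for JQ1 in MEP. Among members with more than 1 probe, 0 were past 1.5-fold in MEP against LSK under JQ1 and 1 under DMSO. The causes were not tested.

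Of 1915 values of 42 named members under the alternatives, 172 moved by more than the probe error, 164 of them in settings without centring. The other 8 came from averaging probes, among them Mrpl41 (-0.95) and Mrps25 (-0.15) for JQ1 in MEP. No paired analysis was possible because each group holds 1 array and all labels carry the same replicate number. With 1 array per group, the signal over background limits single genes only for Mrpl21, and differences between mice or sorts cannot be seen.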

Other observations

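Many of the mitochondrial ribosomal protein genes start next to a gene on the opposite strand. Of the 69 genes with a promoter window, 24 (34.8%) had such a neighbour starting within 1000 bases, against 14.8% of protein-coding genes above the median signal and 8.47% of all 17492 protein-coding genes in the table. Mrpl46 and Mrps11 are neighbours of each other, 42 bases apart. Mrps12 lies 147 bases from Sars2, which charges mitochondrial tRNA, and Mrpl43 lies 116 bases from Twnk, the mitochondrial DNA helicase. Over the 23 pairs in which both genes were measured, counting the pair of members from both sides, the members' median difference for JQ1 in MEP was 0.14 log2 (SD of 0.21 across genes) and the partners' -0.02 (SD of 0.36). For MEP against LSK under JQ1 the medians were 0.23 for members (SD of 0.12) and 0.03 for partners (SD of 0.31). For JQ1 in LSK they were -0.01 for members and 0.06 for partners, and for MEP against LSK under DMSO 0.02 and 0.02. The pairs furthest apart for JQ1 in MEP were Mrps18b (0.35) with its neighbour Ppp1r10 (-0.88), and Mrps5 (0.31) with Zfp661 (-1.02). Other pairs lay closer, such as Mrpl40 (0.32) with Hira (0.43) and Mrpl41 (-0.41) with Pnpla7 (-0.39).

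The 39 shorter members (median gene length 3961 bases) had a median difference of 0.22 log2 for MEP against LSK under JQ1, and the 38 longer ones 0.15. Under DMSO the order was reversed, at 0.03 for the shorter and 0.06 for the longer members. For JQ1 in LSK the medians were -0.06 for the shorter and 0.00 for the longer members, and in MEP 0.13 and 0.10. Spearman's rho of gene length with the JQ1 difference in LSK was 0.22 across members. It was 0.28 across protein-coding genes above the median signal, so this trend was not particular to the family. For MEP against LSK under JQ1 rho was -0.31 and -0.08. These gaps were not tested.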
